A study of Mus musculus with 9 samples.

Results

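Cell cycle and proliferation genes were followed through 9 RNA sequencing libraries of mouse salivary glands. The members were a list of 40 gene symbols, of 23256 genes in the deposited table, and every one of the 40 was found there and passed the filter on low counts that left 14912 genes for testing. The libraries came from submandibular and sublingual glands of female C57BL/6 mice aged 34 weeks, 3 in each of 3 groups, with no other genotype or agent named. Control mice ate standard chow, and DIO mice (diet-induced obese) had a diet with 60% of its calories from fat, begun at 4 weeks of age and kept for 20 weeks. SG mice had the same diet and then, at 24 weeks of age, a sleeve gastrectomy that removed about 80% of the stomach along its greater curvature, under 2% isoflurane after a fast of 12 hours. No sham operation is named in the labels, nor the diet eaten after those 20 weeks, so the operation, its fast and anaesthesia, and the later diet cannot be told apart. The labels do not say that each library is a separate animal, so p-values measure the spread between these libraries, which may be technical.

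A cell that divides first licenses its replication origins, which means loading the ring-shaped MCM helicase onto DNA with the help of Cdc6 and Cdt1. Cyclin E with its kinase starts DNA synthesis, cyclin A and cyclin B with Cdk1 carry the cell into mitosis, and the anaphase-promoting complex then destroys the cyclins so that division can finish. Acinar and duct cells of the adult salivary gland divide rarely, and immune cells that lodge in a gland or in a lymph node beside it can divide as well. In a bulk library, fewer dividing cells and less RNA per dividing cell cannot be told apart.

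The members fall into 15 that serve DNA synthesis (2 cyclins E, 10 genes of origin licensing and the replication fork, and 3 of nucleotide supply) and 25 that serve division (the marker Mki67 and the chromosome untangling enzyme Top2a, Cdk1 with cyclins A and B, mitotic kinases, partners of the anaphase-promoting complex, centromere proteins, spindle proteins, and Foxm1). Promoters of the 2 kinds are known for different elements: E2F sites for DNA synthesis genes, and for division genes a cell cycle homology region next to CCAAT boxes. RefSeq promoter windows of 250 bases before the start (build GRCm38.p6, whereas the submitters' processing notes name GRCm39) were matched by gene number for 33 of the 40 members, in 35 windows. A CCAAT box (CCAAT on either strand) stood in 29 of the 35 windows, or 82.9%, against 33.8% of all 32851 windows of that length. It was in 19 of 21 windows of division members and in 10 of 14 of DNA synthesis members. The cell cycle homology region (TTTGAA or TTCGAA, either strand) was in 9 of 21 division windows and 3 of 14 DNA synthesis windows, against 17.1% of all windows. E2F letters (any of 4 spellings on either strand: TTCGCGC, its variant TTCCCGC, the form TTGGCGC, and its variant TTGCCGC) were in 3 of 21 division windows and 7 of 14 DNA synthesis windows, against 7.89% of all. Each motif was searched by itself, also where matches of different motifs overlap, and a match describes the letters only.

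The windows below belong to Mcm2, the most abundant DNA synthesis member whose window holds one of these motifs in at least 150 bases clear of annotated exons, and to Ube2c and Cdc20, the most abundant division members by that rule. Cdc20 and Ube2c are also the members that gave the lowest p-values when DIO was compared with control. Bases under an annotated exon are left out, motif letters are in capitals, and each reads 5′ to 3′ on the strand of the gene. Mcm2 is shown at chr6:88898781-88899030, minus strand, from base 250 to base 1 before the start. Ube2c is shown at chr2:164769679-164769897, plus strand, from base 250 to base 32. Cdc20 is shown at chr4:118437353-118437593, minus strand, from base 250 to base 10.
Mcm2: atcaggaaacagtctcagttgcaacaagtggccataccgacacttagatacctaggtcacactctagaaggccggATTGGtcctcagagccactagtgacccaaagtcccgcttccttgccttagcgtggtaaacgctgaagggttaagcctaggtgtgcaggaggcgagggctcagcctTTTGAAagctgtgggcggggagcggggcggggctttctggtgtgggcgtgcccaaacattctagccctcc
Ube2c: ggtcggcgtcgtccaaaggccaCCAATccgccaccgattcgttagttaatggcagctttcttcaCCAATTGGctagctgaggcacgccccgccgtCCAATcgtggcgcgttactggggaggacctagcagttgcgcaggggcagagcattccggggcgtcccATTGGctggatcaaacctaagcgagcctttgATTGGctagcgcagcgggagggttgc
Cdc20: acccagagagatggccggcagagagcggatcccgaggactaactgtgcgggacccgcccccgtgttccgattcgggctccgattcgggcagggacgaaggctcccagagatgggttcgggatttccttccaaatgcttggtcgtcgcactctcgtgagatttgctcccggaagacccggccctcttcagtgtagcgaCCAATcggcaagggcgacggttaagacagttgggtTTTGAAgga
In the printed stretches Mcm2 has 1 homology region, at base 70 before the start, and 1 CCAAT box at base 175, each counted at its first letter as printed. Ube2c has 6 CCAAT boxes, at bases 228, 186, 183, 155, 88 and 57. Cdc20 has a CCAAT box at base 53 and a homology region at base 18. The homology region of Ube2c and a further CCAAT box of Cdc20 lie in bases not printed. None of the 3 stretches holds the E2F letters.

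Libraries held 36349885 to 43495564 counts. Levels are given in CPM, counts scaled to a common library size set by TMM, a method that takes that size from the bulk of the genes. Detection was taken as 3 counts, which equalled 0.0674 to 0.0833 CPM and covers counting error only. The lowest value of any member was 3 counts, for Bub1 in DIO 3. Marks of the labelled glands (Prol1, Smgc, Muc19, Klk1, Egf, Aqp5 and Bhlha15) were detected in every library. The library control 2 stood apart from the other 8 in most members, so group comparisons are given with and without it.

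Per gene length, Pcna, the sliding clamp of DNA polymerases, was the most abundant member, at a mean of 24.9 FPKM over the 9 libraries (fragments per kilobase of transcript, scaled by library size). Next came the helicase subunits Mcm2 at 4.50 FPKM and Mcm7 at 4.33 FPKM, and Rrm1, the large subunit of ribonucleotide reductase, at 4.27 FPKM. The division members lay lower, from 0.122 FPKM for the chromosome motor Kif4 to 2.94 FPKM for Ube2c, a ubiquitin-conjugating enzyme of the anaphase-promoting complex. Without control 2, the median over members was 1.58 FPKM for the 15 DNA synthesis genes and 0.383 FPKM for the 25 division genes. In control 2 the order was the other way, with medians of 2.998 FPKM for DNA synthesis and 3.29 FPKM for division members.

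Control 2 held the highest level of the 9 libraries in 38 of the 40 members, where 17.0% of all tested genes had their highest level in that library. The exceptions were Ccne2, highest in control 1, and Mcm4, highest in DIO 1. This excess was known when the genes were chosen and is given as a description, with no test. Its size followed the roles of the genes, as the plot of the ratio by role shows. In the 25 division members the CPM of control 2 was 3.78 to 13.4 times the median of the other 8 libraries, with a median ratio of 9.87. In the 15 DNA synthesis members it was 1.13 to 2.90 times that median, with a median ratio of 1.61, and the ranges of the 2 kinds did not meet. Of all genes tested, 3.02% had a ratio over 4 and the median ratio was 0.995.

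**Figure D1:**
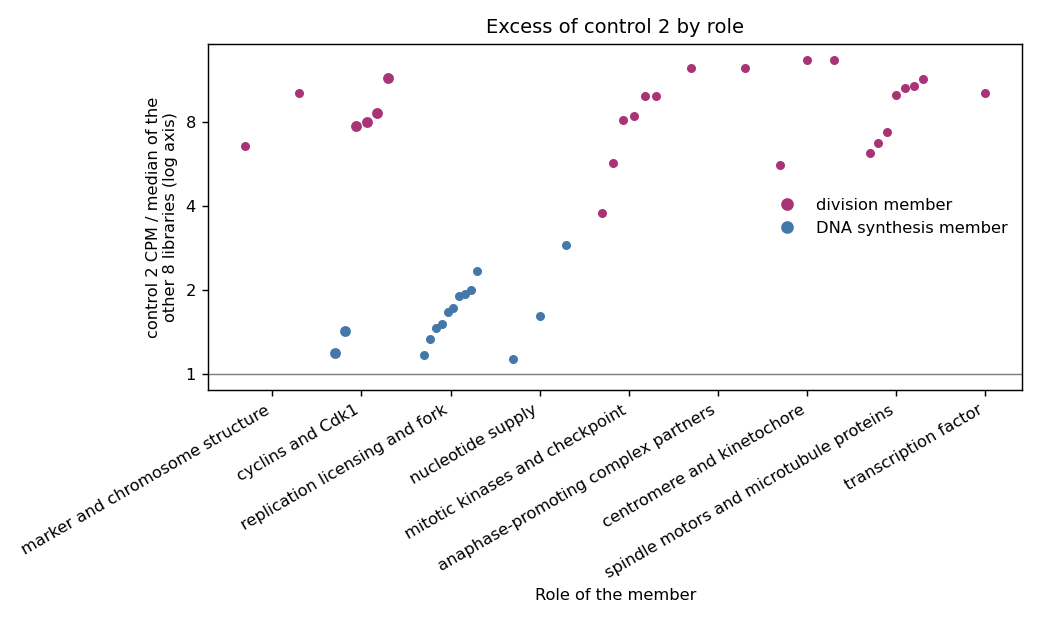
Ratio of the CPM in control 2 to the median CPM of the other 8 libraries (log axis), 1 point per member, by role on the x axis and colored by kind. Division members run from 3.78 (Bub1b) to 13.4 (Cenpe) and DNA synthesis members from 1.13 (Tyms) to 2.90 (Rrm2).

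Mki67 (NCBI gene 17345), the Ki-67 protein that coats mitotic chromosomes and marks cycling cells, stood at 7.39, 45.5 and 5.19 CPM in control 1, 2 and 3, 8.44, 8.17 and 3.53 CPM in DIO 1, 2 and 3, and 3.78, 3.63 and 2.39 CPM in SG 1, 2 and 3. Top2a (21973), the topoisomerase that untangles sister chromosomes, stood at 4.71, 29.3 and 4.83 CPM in control 1, 2 and 3, 7.64, 7.96 and 4.20 CPM in DIO 1, 2 and 3, and 4.09, 3.95 and 2.11 CPM in SG 1, 2 and 3. In both genes control 2 lay far above every other library, DIO 1 and DIO 2 came next, and SG 3 was lowest. For Top2a all 3 SG libraries lay below all 3 DIO libraries, whereas for Mki67 DIO 3 fell among the SG libraries. The mean of Mki67 was 19.3 ± 22.6 CPM in control, 6.72 ± 2.76 in DIO and 3.27 ± 0.767 in SG (SD, n = 3), so that the SD of control exceeded its mean.

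Among cyclins and Cdk1, the 4 that act from S phase to mitosis stood in control 2 at 7.73 to 11.5 times the median of the other libraries, and the 2 cyclins E at 1.19 and 1.42 times that median. Cdk1 (12534), the kinase that drives mitosis, stood at 2.98, 14.0 and 2.24 CPM in control 1, 2 and 3, 2.35, 1.78 and 1.39 CPM in DIO 1, 2 and 3, and 1.47, 1.84 and 0.944 CPM in SG 1, 2 and 3. Ccnb2 (12442), a cyclin B and the most abundant of the group per length, stood at 1.06, 9.24 and 1.44 CPM in control 1, 2 and 3, 1.14, 1.05 and 1.16 CPM in DIO 1, 2 and 3, and 1.30, 1.32 and 0.222 CPM in SG 1, 2 and 3. Cdk1 was lower in every SG library than in every control library, and Ccnb2 overlapped between all groups except that SG 3 was far below the rest. Ccne1, a cyclin E of the start of DNA synthesis, ran only from 0.904 to 1.57 CPM over the 9 libraries.

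Genes of origin licensing and the replication fork had smaller spans between libraries than most division genes, but not all were flat. Mcm2 (17216), a subunit of the helicase, stood at 13.1, 17.7 and 13.8 CPM in control 1, 2 and 3, 15.7, 15.7 and 15.8 CPM in DIO 1, 2 and 3, and 13.7, 15.03 and 15.3 CPM in SG 1, 2 and 3. Pcna (18538) stood at 33.9, 44.01 and 29.3 CPM in control 1, 2 and 3, 28.8, 31.9 and 27.4 CPM in DIO 1, 2 and 3, and 27.1, 31.1 and 27.9 CPM in SG 1, 2 and 3. In the 8 libraries other than control 2, the highest level of Mcm2 was 1.21 times the lowest, that of Mcm7 1.22 times and that of Pcna 1.25 times, the 3 narrowest spans of the 40 members. With control 2 included, Mcm3 ran from 3.58 to 9.26 CPM, Mcm5 from 3.61 to 9.80 CPM and Mcm6 from 6.83 to 16.4 CPM, and Cdt1 from 2.11 to 4.88 CPM. Cdc45, a part of the moving helicase, ran from 1.44 to 3.35 CPM. The widest of the 10 was Cdc6, the loader of the helicase, with 0.305 to 1.02 CPM in those 8 libraries and 1.75 CPM in control 2. DIO libraries lay close together in Mcm2, at 15.7, 15.7 and 15.8 CPM, above both control 1 and control 3 and below control 2.

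Of the 3 nucleotide supply genes, Rrm1 (20133) stood at 17.0, 25.4 and 14.6 CPM in control 1, 2 and 3, 18.6, 15.8 and 15.7 CPM in DIO 1, 2 and 3, and 16.7, 14.8 and 14.2 CPM in SG 1, 2 and 3. Rrm2 (20135), the small subunit that limits ribonucleotide reductase in cycling cells, stood at 4.52, 11.8 and 3.65 CPM in control 1, 2 and 3, 5.80, 5.79 and 4.74 CPM in DIO 1, 2 and 3, and 3.12, 3.30 and 2.86 CPM in SG 1, 2 and 3. All SG libraries were below all DIO and all control libraries in Rrm2, with the DIO libraries above control 1 and control 3. Tyms, the thymidylate synthase, had the smallest excess in control 2 of any member, 1.13 times the median of the other 8.

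**Figure D2:**
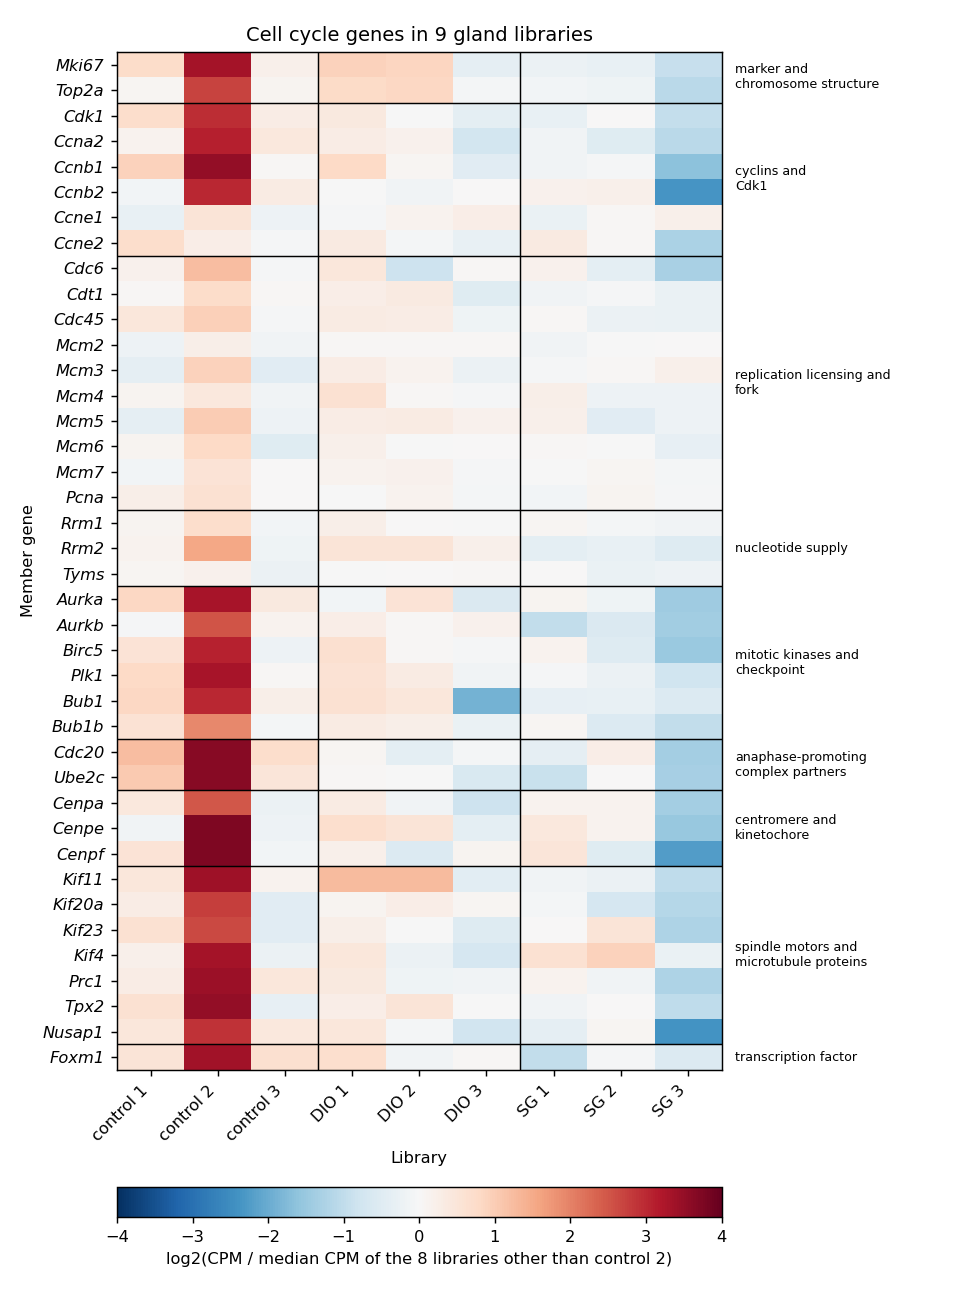
Level of each member (rows, grouped by role) in each library (columns), as log2 of its CPM over the median CPM of the 8 libraries other than control 2. Control 2 is above that median in all 40 members, and SG 3 is above it in 3.

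Mitotic kinases and checkpoint genes stood in control 2 at 3.78 to 9.88 times the median of the rest. Aurka (20878), the Aurora A kinase of spindle poles, stood at 1.73, 9.58 and 1.27 CPM in control 1, 2 and 3, 0.898, 1.41 and 0.644 CPM in DIO 1, 2 and 3, and 1.04, 0.856 and 0.361 CPM in SG 1, 2 and 3. Aurkb (20877), the Aurora B kinase of the chromosomal passenger complex, stood at 0.638, 3.78 and 0.721 CPM in control 1, 2 and 3, 0.801, 0.681 and 0.748 CPM in DIO 1, 2 and 3, and 0.330, 0.441 and 0.250 CPM in SG 1, 2 and 3. Aurkb was lower in all SG libraries than in any other library, and Aurka was lower in all SG libraries than in all control libraries. The other 4 of the group are Birc5 (survivin, a partner of Aurora B), Plk1 (the polo kinase), and Bub1 and Bub1b (the spindle checkpoint). They ran from 0.0773 CPM for Bub1 in DIO 3 to 3.46 CPM for Bub1b in control 1, leaving out control 2.

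The 2 partners of the anaphase-promoting complex were the only members whose DIO libraries all lay below all control libraries. Of all genes, 7.36% did so, and neither of the 2 passed the test. Cdc20 (107995), the activator that turns the complex on at the end of metaphase, stood at 3.64, 19.5 and 2.55 CPM in control 1, 2 and 3, 1.65, 1.18 and 1.47 CPM in DIO 1, 2 and 3, and 1.22, 1.89 and 0.611 CPM in SG 1, 2 and 3. Ube2c (68612), its ubiquitin-conjugating enzyme, stood at 2.45, 14.8 and 1.66 CPM in control 1, 2 and 3, 1.21, 1.18 and 0.773 CPM in DIO 1, 2 and 3, and 0.635, 1.19 and 0.472 CPM in SG 1, 2 and 3. In both genes all 3 control libraries, including the lower control 1 and control 3, lay above all 3 DIO and all 3 SG libraries. Control 2 was 12.5 times the median of the other 8 in each.

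Centromere and spindle genes had low levels and large ratios. Cenpa (12615), the histone H3 variant of centromeres, stood at 1.70, 7.17 and 1.08 CPM in control 1, 2 and 3, 1.60, 1.15 and 0.722 CPM in DIO 1, 2 and 3, and 1.40, 1.40 and 0.4996 CPM in SG 1, 2 and 3. Prc1 (233406), which bundles microtubules of the central spindle, stood at 2.50, 22.0 and 2.77 CPM in control 1, 2 and 3, 2.67, 1.81 and 1.83 CPM in DIO 1, 2 and 3, and 2.23, 1.84 and 0.860 CPM in SG 1, 2 and 3. The largest ratios of control 2 to the other libraries in the whole list were those of the kinetochore proteins Cenpe, at 13.4, and Cenpf, at 13.3. Without control 2, the 7 spindle genes (Kif11, Kif20a, Kif23, Kif4, Prc1, Tpx2 and Nusap1) lay between 0.194 and 2.77 CPM. Foxm1 (14235), the transcription factor of G2 and mitosis genes, stood at 1.65, 11.9 and 1.80 CPM in control 1, 2 and 3, 1.84, 1.05 and 1.21 CPM in DIO 1, 2 and 3, and 0.584, 1.116 and 0.805 CPM in SG 1, 2 and 3. Its SG libraries were below all control libraries and overlapped those of DIO.

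**Figure D3:**
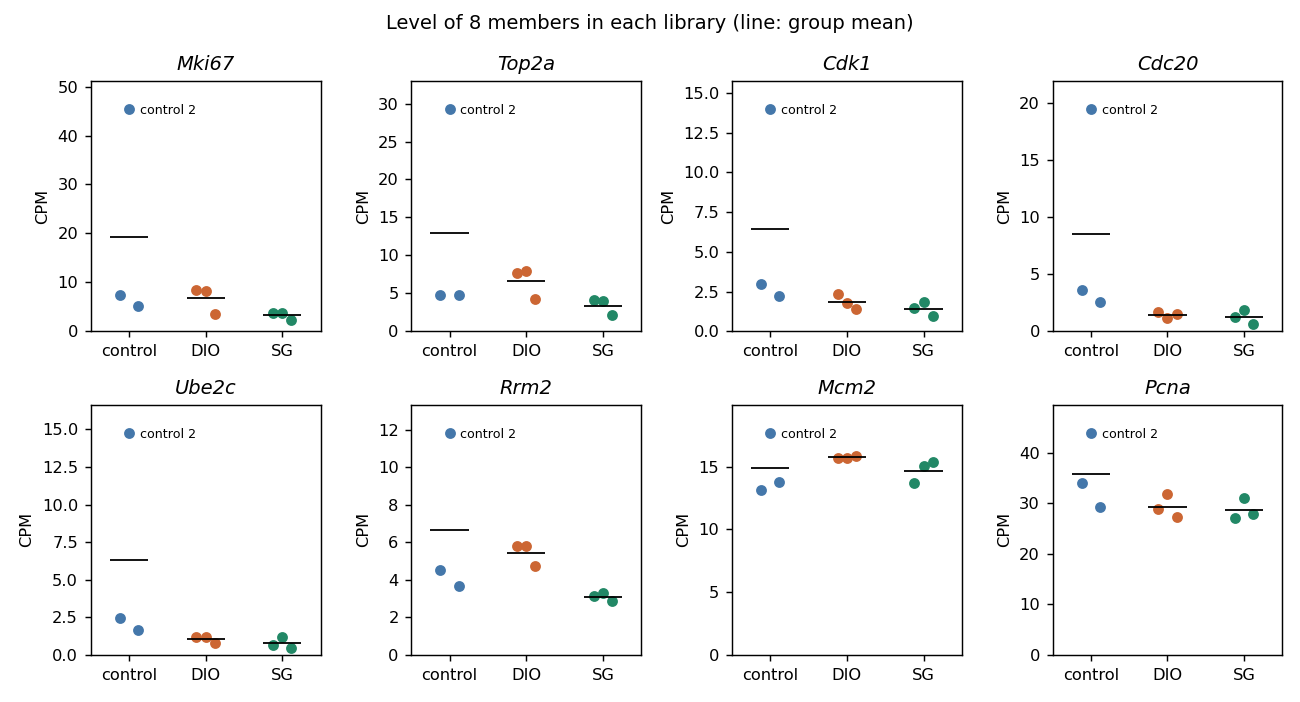
CPM of 8 members in each library, 1 panel per gene with its own linear axis from 0; points are libraries, lines are group means of 3. Control 2 is the highest point in each panel, and in Cdc20 and Ube2c the other 2 control points also lie above every DIO point.

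The summed level of the 25 division members was 310 CPM in control 2, against 50.9 and 40.1 CPM in control 1 and control 3. In DIO 1, 2 and 3 it was 50.5, 45.3 and 29.3 CPM, and in SG 1, 2 and 3 it was 32.5, 32.1 and 15.99 CPM. The summed level of the 15 DNA synthesis members was 183 CPM in control 2 and 108 to 133 CPM in the other libraries. SG 3 was the lowest of the 9 libraries in 27 of the 40 members, 22 of them division members, where 9.58% of all tested genes had their lowest level there. Among the 8 libraries without control 2, the highest was control 1 in 17 members, DIO 1 in 13 and DIO 2 in 4.

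Markers of several other cell types also stood apart in control 2. For the 10 B cell markers the sum was 141 CPM in control 2, 10.8 CPM in control 1 and 0.866 CPM in control 3, with 18.4 to 50.1 CPM over the DIO libraries and 4.32 to 8.96 CPM over those of SG. Of the B cell markers, 6 to 10 reached 3 counts in each library. The 9 measured T cell markers summed to 68.7 CPM in control 2, 8.696 and 2.48 CPM in the remaining controls, 17.0 to 36.2 CPM with DIO and 5.09 to 7.90 CPM after SG. Glycam1, a mucin of lymph node vessels, stood at 48.3 CPM in control 2 and at 0 to 0.602 CPM elsewhere, and the 5 lymph node markers summed to 101 CPM there against 1.63 to 8.25 CPM. Adipocyte markers summed to 68.0 CPM in control 2 and 0.508 to 15.8 CPM elsewhere. The 5 parotid acinar markers summed to 50802 CPM in control 2 and 14206 to 29984 CPM elsewhere. Of these, Amy1 (amylase), Bpifa2 and Dnase1 were highest in control 2, and Pip and Cldn10 were not. Amy1 stood at 8359 CPM in control 2, at 1672 CPM in both control 1 and SG 1, and at 11.8 to 412 CPM in the rest. Bpifa2 and Dnase1 were also next highest in SG 1 and control 1. Outside control 2, DIO 2 and DIO 1 had the highest B cell sums, 50.1 and 29.6 CPM, beside 45.3 and 50.5 CPM of division members. Control 1 had 10.8 CPM of B cell markers and 50.9 CPM of division members. Control 3, at 0.866 CPM the lowest library in B cell markers, had 40.1 CPM of division members, more than any SG library. The part of these cell types in the member levels was not tested.

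**Figure D4:**
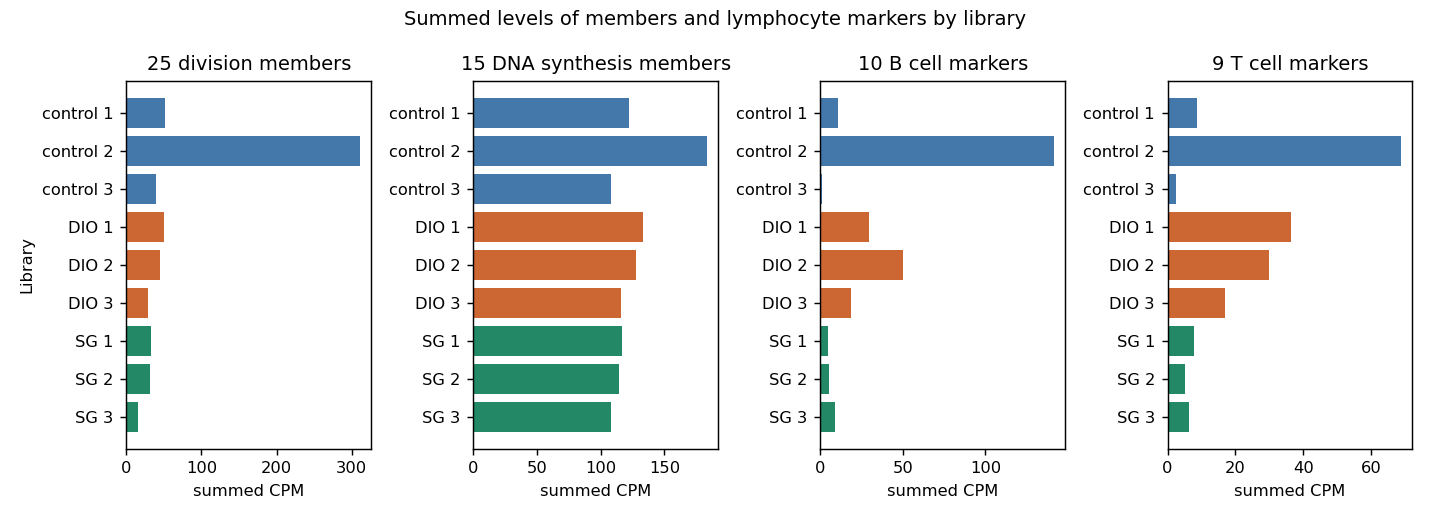
Summed CPM per library of the 25 division members, the 15 DNA synthesis members, 10 B cell markers and 9 T cell markers (linear axes from 0, bars colored by group). Control 2 is highest in all 4 panels, at 310, 183, 141 and 68.7 CPM.

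The comparison of DIO with control asks how diet-induced obesity bears on these genes. With all libraries, 37 of the 40 members were lower in DIO, against 48.3% of all tested genes, and none passed the test. The median log2 fold change was -1.45 over the members, -1.80 over division members and -0.16 over DNA synthesis members, beside 0.01 over all genes. In edgeR's quasi-likelihood test 0 of 40 had an adjusted p under 0.05, where 0.0939% of all genes did. An unadjusted p under 0.05 was reached by 18 members, all of them for division, against 10.3% of all genes. Control 2 was highest in most members, and this excess was known when they were chosen. With all libraries, the shares of members and of all genes are thus not a like comparison. DESeq2 called 0 members and 1.24% of all genes, a share taken here and below over genes with an adjusted p. In every comparison DESeq2 gave no adjusted p to Ccna2, Cenpe, Kif11, Kif4, Prc1 and Foxm1, so its counts of members called leave these out. Without control 2 the median was -0.07, with 21 members lower and 19 higher, where 50.0% of all genes were lower. In that fit 0 members were called, against 0.928% of all genes, and 4 had an unadjusted p under 0.05 against 13.8% of all genes.

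Cdc20 had the lowest p of this comparison, with 8.55 ± 9.47 CPM in control and 1.43 ± 0.238 in DIO (SD, n = 3; log2 fold change -2.58, SE 0.69, adjusted p = 0.239). Ube2c followed with 6.30 ± 7.36 and 1.06 ± 0.245 CPM (log2 fold change -2.58, SE 0.73, adjusted p = 0.262). These were the 2 members whose DIO libraries all lay below all control libraries, as in 7.36% of all genes, and in 0 members did they all lie above, as in 8.97% of all genes. Without control 2 their log2 fold changes were -1.13 (SE 0.39, adjusted p = 0.207) and -0.98 (SE 0.41, adjusted p = 0.305), with the same direction and smaller size. Of the 25 division members, 17 stayed lower in DIO without control 2, with a median of -0.25, and 8 were higher. Among those higher, Mki67 went from -1.53 (SE 0.68, adjusted p = 0.476) to 0.08 (SE 0.32, adjusted p = 0.956). Top2a went from -0.98 (SE 0.62, adjusted p = 0.632) to 0.45 (SE 0.30, adjusted p = 0.575).

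The remaining named members gave adjusted p-values of 0.337 to 0.863. They were Cdk1 (-1.80, SE 0.60), Ccnb2 (-1.81, SE 0.79), Aurka (-2.09, SE 0.71), Aurkb (-1.21, SE 0.62), Cenpa (-1.52, SE 0.66), Prc1 (-2.11, SE 0.74) and Foxm1 (-1.90, SE 0.68) on the division side. On the DNA synthesis side were Pcna (-0.29, SE 0.14), Rrm1 (-0.19, SE 0.18), Rrm2 (-0.30, SE 0.36) and Mcm2 (0.08, SE 0.12). Without control 2, Cdk1 (-0.52), Aurka (-0.63), Foxm1 (-0.36), Prc1 (-0.35), Cenpa (-0.28) and Ccnb2 (-0.19) kept their sign, with adjusted p-values of 0.550 to 0.929. The signs of Aurkb, Rrm1 and Rrm2 were then positive (0.10, 0.06 and 0.39), and 11 of the 15 DNA synthesis members were higher in DIO, with a median of 0.12.

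**Figure D5:**
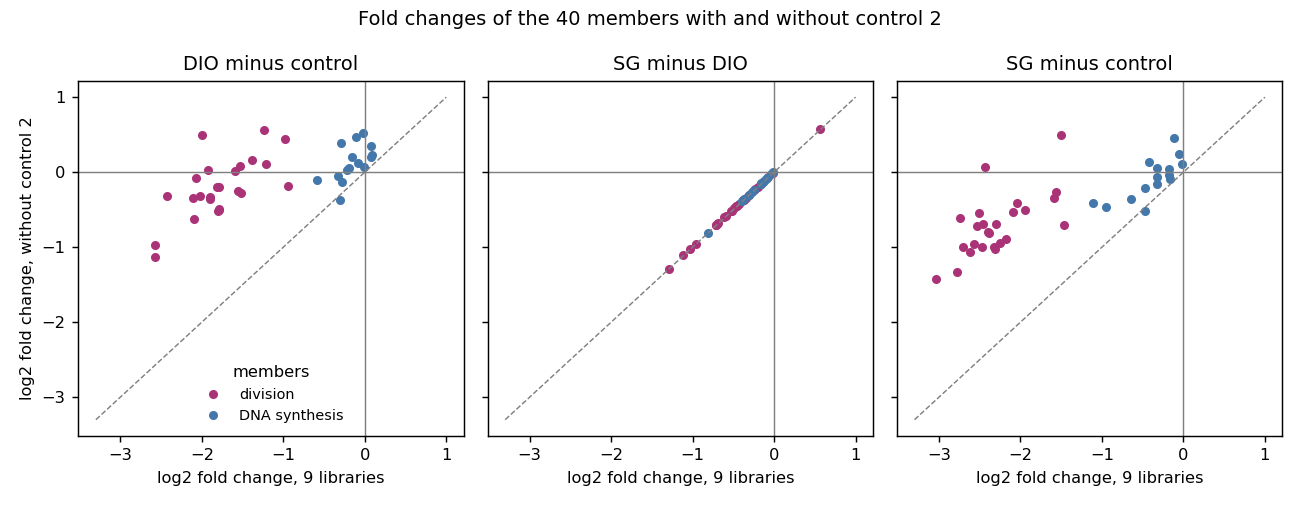
Log2 fold change of each member from all 9 libraries (x axis) and without control 2 (y axis), 1 panel per comparison; the dashed line marks equal values. In DIO minus control and SG minus control the division members lie above the line, while in SG minus DIO, which does not involve control 2, they lie close to it.

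Setting SG beside DIO compares 2 groups with the same diet history, and these fold changes do not rest on control 2. The operation, its fast and anaesthesia, and the later diet cannot be told apart in it. Here 39 of the 40 members were lower in SG, against 51.0% of all tested genes, with Kif4 (0.56, SE 0.86) the exception. The median log2 fold change was -0.37 over the members, -0.49 over the division members and -0.16 over the DNA synthesis members, beside -0.00 over all genes. None passed the test (0 of 40, with 0.0% of all genes), 0 members had an unadjusted p under 0.05 in edgeR's test where 8.93% of all genes did, and DESeq2 called 0 members and 0.568% of all genes. The median was -0.19 without DIO 1 and -0.17 without SG 3, the library lowest in most members. Without SG 3, 33 members were lower in SG. Leaving out control 2, which also changed the spread, the scaling and the filter (15092 genes tested), gave 5 members with an unadjusted p under 0.05 against 12.0% of all genes, and 0 called against 0.775%. It left 39 members lower, where 49.0% of all genes were.

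Rrm2 had the lowest p, at 3.09 ± 0.220 CPM for SG and 5.44 ± 0.607 for DIO (SD, n = 3; log2 fold change -0.81, SE 0.37, adjusted p = 0.559). Aurkb was second, at 0.340 ± 0.0961 and 0.743 ± 0.0600 CPM (log2 fold change -1.12, SE 0.66, adjusted p = 0.666). Without control 2 the value of Rrm2 was -0.81 (SE 0.17, adjusted p = 0.0522) and that of Aurkb -1.11 (SE 0.41, adjusted p = 0.274). The SG libraries all lay below the DIO libraries in 5 members (Top2a, Mcm2, Rrm2, Aurkb and Kif20a), or 12.5% of them, where 9.74% of all genes did so, and above them in 0, where 6.57% of all genes did. The mean of Top2a was 6.60 ± 2.09 CPM for DIO against 3.38 ± 1.10 for SG (log2 fold change -0.96, SE 0.64, adjusted p = 0.699), and Mki67 gave a log2 fold change of -1.04 (SE 0.71, adjusted p = 0.705). Cdc20 and Ube2c, whose DIO libraries lay below all control libraries without passing the test, gave -0.20 (SE 0.70) and -0.46 (SE 0.75) here. Of the named members, Cdk1, Ccnb2, Aurka, Cenpa, Prc1, Foxm1, Pcna, Rrm1 and Mcm2 had log2 fold changes from -0.71 to -0.03 and adjusted p-values of 0.813 to 0.986. The T cell sum (5.09 to 7.90 against 17.0 to 36.2 CPM) and the B cell sum (4.32 to 8.96 against 18.4 to 50.1 CPM) also lay lower for SG than for DIO in every library. The plasma cell sum was 231 to 283 CPM for SG and 320 to 393 CPM for DIO, but its most abundant markers, Jchain and Derl3, did not go together. Jchain stood at 44.8 to 96.2 CPM for SG and 120 to 231 CPM for DIO. Derl3 overlapped, at 130 to 178 CPM for SG and 124 to 170 CPM for DIO. The duct and basal epithelium sum was 1045 to 1110 CPM for SG and 883 to 964 CPM for DIO. The red blood cell sum was 401 and 252 CPM in SG 2 and SG 3 and at most 127 CPM in the other libraries. The part of these cell types in the differences was not tested.

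The comparison of SG with control shares its control libraries with the first comparison and its SG libraries with the second, so its values are not independent of theirs. All 40 members were lower in SG, against 49.7% of all genes, with a median log2 fold change of -1.99 over the members, -2.39 over the division members and -0.32 over the DNA synthesis members (0.00 over all genes). In edgeR's test 0 of 40 passed, with 0.0% of all genes, and 26 had an unadjusted p under 0.05 against 8.1% of all genes. Here too the members were chosen with the excess of control 2 known. These shares of members and of all genes are therefore not a like comparison. DESeq2 called 1 member, Aurka (log2 fold change -2.48, SE 0.63, adjusted p = 0.0367), where it called 0.341% of all genes. The adjusted p of Aurka in edgeR's test was 0.530. Without control 2, edgeR gave Aurka a log2 fold change of -0.999 (SE 0.465, adjusted p = 0.875), and DESeq2 was not run without that library. Without control 2 the median was -0.51, with 32 of 40 lower against 49.0% of all genes, and 8 had an unadjusted p under 0.05 against 5.63%. In that fit 0 were called, against 0.0199% of all genes.

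All SG libraries lay below all control libraries in 17 members, or 42.5%, where 5.17% of all genes did so, and above them in 0, where 6.66% did. A gene counts here only if control 1 and control 3 also exceed every SG library. Control 2 was highest in 38 of the 40 members, against 17.0% of all genes, and this excess was known when they were chosen. Its part of the condition was thus met in advance for those members, so 42.5% and 5.17% are not a like comparison. The 17 were 15 division members (Mki67, Top2a, Cdk1, Ccna2, Ccnb1, Aurka, Aurkb, Plk1, Bub1, Cdc20, Ube2c, Kif11, Prc1, Nusap1 and Foxm1) and the DNA synthesis members Cdt1 and Rrm2. Ube2c averaged 0.767 ± 0.379 CPM after SG and 6.30 ± 7.36 in control (SD, n = 3; log2 fold change -3.03, SE 0.75, adjusted p = 0.481), and -1.43 (SE 0.41, adjusted p = 0.566) without control 2. Cdc20 averaged 1.24 ± 0.642 and 8.55 ± 9.47 CPM (log2 fold change -2.78, SE 0.70, adjusted p = 0.481), and -1.32 (SE 0.39, adjusted p = 0.580) without control 2. Foxm1 gave -2.61 (SE 0.70) and Mki67 -2.57 (SE 0.72), which were -1.06 and -0.95 without control 2. The remaining division genes of the named set (Top2a, Cdk1, Ccnb2, Aurka, Aurkb, Cenpa and Prc1) ran from -2.47 to -1.59, and Pcna, Rrm1, Rrm2 and Mcm2 from -1.11 to -0.02. Their adjusted p-values were 0.514 to 0.977.

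The ratio of control 2 was also computed for cell cycle genes outside the members. A list of 45 other mitosis genes, all tested, had a median ratio of control 2 to the other libraries of 6.73, and control 2 was highest in 41 of them. The ratios ran from 0.860 for Pttg1 (securin) to 27.9 for the kinase gene Nek2. For 27 tested of 28 other replication genes the median ratio was 1.40, with control 2 highest in 19, and 4 genes had a ratio over 4, up to 6.58 for Clspn (claspin, of the replication checkpoint). The ranges of these 2 lists overlapped, unlike those of the 2 kinds of member. For 22 tested of 23 genes of G1 control and the E2F family it was 1.05, with control 2 highest in 9, and for 11 tested of 12 cell cycle inhibitors and quiescence genes 1.16, with control 2 highest in 4. Cdk4 and Ccnd1, the kinase and cyclin that act at G1 entry and are named here after their values were seen, stood in control 2 at 0.952 and 0.856 times the median of the other 8. No gene of these lists passed edgeR's test in any comparison in either direction (0 of 105), and unadjusted p-values under 0.05 numbered 24 for DIO and control (22.9%, against 10.3% of all genes), 3 for SG and DIO (2.86%, against 8.93%), and 39 for SG and control (37.1%, against 8.1%). DESeq2 gave an adjusted p to 101, 100 and 103 of the 108 listed genes for these comparisons in the same order. It called 5 of them, each lower in the group named first, where it called 1.24%, 0.568% and 0.341% of all genes. These were the kinetochore genes Cenpm (log2 fold change -2.25, SE 0.60, adjusted p = 0.0231) and Spc25 (-1.56, SE 0.44, adjusted p = 0.0348) and the kinase gene Melk (-2.70, SE 0.65, adjusted p = 0.00570) for DIO and control. The others were Btg2, an antiproliferative gene (-0.71, SE 0.18, adjusted p = 0.0269), for SG and DIO, and Tk1, the thymidine kinase (-2.03, SE 0.54, adjusted p = 0.0455), for SG and control. DESeq2 was run with all libraries only, so how far its calls against control rest on control 2 was not tested. For SG and DIO the median log2 fold change was -0.33 for the mitosis list, with 32 of 45 lower, and -0.08 for the replication list, with 18 of 27 lower, where 51.0% of all genes were lower. With all libraries the mitosis list had a median of -1.49 when DIO was set against control and -1.79 when SG was. Without control 2 these medians were -0.10 and -0.38.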

How the data were processed

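Per the labels' protocols, RNA was taken up in TRIzol, and polyadenylated RNA went into VAHTS Universal V6 libraries. HISAT2, Salmon and the build GRCm39 are named in the submitters' processing notes, without versions or roles. For the annotation, strand setting and handling of multi-mapping reads, the sources used here give nothing. The authors deposited whole-number read counts per gene, and the same genes as FPKM, which scales counts by gene length and library size. FPKM was used only to compare levels between genes.

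The 3 groups were compared with edgeR 4.0.16 (R 4.3.3) by its quasi-likelihood F test on the deposited counts, in 1 fit of 9 libraries with TMM scaling and filterByExpr. P-values were adjusted by Benjamini-Hochberg over the 14912 genes tested, with a threshold of 0.05. The SE of a log2 fold change is its size divided by the square root of F. The script was tested on simulated data. DESeq2 1.42.0, other filters and scaling, 2-group fits, a replicate block and leaving out each library were the alternatives. Members, gene lists, named genes and tests were chosen with earlier results of these data known. Named genes were the most abundant member per role by FPKM, with Mki67, Top2a, Cdk1, Mcm2, Cdc20 and the 2 members of lowest p in each comparison. Replicate libraries differed by a chi-square of 29.8 to 229 per degree of freedom, so none was a copy. All 9 libraries were used, and the gene Trac of the T cell list was not matched. Marker lists for macrophages and endothelium were also summed. Control, DIO and SG libraries gave 96.0 to 149, 145 to 177 and 106 to 156 CPM of macrophage markers, and 62.8 to 82.9, 51.9 to 56.2 and 55.4 to 80.9 CPM of endothelial markers.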

Additional observations from a re-analysis of the deposited data

How the results depend on the processing

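Of 672 log2 fold changes of the 15 named members under 15 alternatives, 657 kept their direction and their side of the threshold, 14 turned sign, all of them when 1 library was left out, and 1 passed the threshold, Aurka in SG against control by DESeq2, which made the count of members called 1 there. No other alternative called a member. Prc1 and Foxm1 had no adjusted p from DESeq2, and their values there kept their direction and were counted among the 657. Over the alternatives, adjusted p-values of the named members ran from 0.0607 to 0.9995 in DIO against control, from 0.0522 to 1 in SG against DIO and from 0.0367 to 1 in SG against control. With 1 library left out at a time, the median of the members ran from -1.89 to -0.069 in DIO against control and from -2.39 to -0.51 in SG against control, each time weakest without control 2, and from -0.51 to -0.17 in SG against DIO. Members lower in DIO than control numbered 21 to 39, those lower in SG than DIO 33 to 39, and those lower in SG than control 32 to 40. In DIO against control the ranges were -1.37 to 0.45 for Top2a, -1.98 to 0.076 for Mki67, -0.35 to 0.058 for Rrm1, -0.59 to 0.39 for Rrm2 and -1.60 to 0.10 for Aurkb, and -0.000295 to 0.21 for Mcm2, all highest without control 2. In SG against DIO they were -0.53 to 0.23 for Ccnb2, -0.082 to 0.042 for Pcna, -0.32 to 0.27 for Cenpa and -0.63 to 0.12 for Cdc20, and in SG against control -0.10 to 0.11 for Mcm2. The cause was not tested. A fit with 1 library of a group left out keeps 2 in that group. Library totals in place of TMM moved the median of all genes to 0.10 in DIO against control, where 34 members were then lower in place of 37. Between same-numbered libraries, the correlation of deviations from group means was -0.10, 0.10 and 0.38 for control and DIO. It was 0.29, 0.11 and 0.05 for DIO and SG, and 0.10, -0.06 and 0.10 for control and SG. Differently numbered libraries were not set beside them, so these values do not settle whether the numbers mark a pairing. With the replicate block the medians were -1.01, -0.47 and -1.62 in DIO against control, SG against DIO and SG against control, and 0 members were called. A filter of at least 1 CPM in 3 libraries tested 33 of the 40 members. Over all genes, the count called was 14 in DIO against control, but 185 by DESeq2, 140 without control 2 and 0 without DIO 1. In SG against DIO it was 0, but 80 by DESeq2, 179 with those 2 groups alone and 117 without control 2, and in SG against control 0, but 54 by DESeq2. Depth limits the precision of members with few counts, such as Bub1.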

Other observations

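Outside the members, control 2 was highest in 9 of 22 genes of G1 control and the E2F family and in 4 of 11 inhibitors and quiescence genes. A few, chosen after their values were seen, are given here. Cdkn2c, an inhibitor of the G1 kinases Cdk4 and Cdk6, stood at 14.4 CPM in control 2 and at 5.39 to 6.47 CPM in the other 8 libraries. Ccnd2, a cyclin D that lymphocytes use, stood at 18.7 CPM there and at 7.16 to 15.4 CPM elsewhere, with DIO 1 and DIO 2 next at 15.4 and 12.2 CPM. E2f8, an E2F repressor made in S phase, stood at 1.78 CPM there and at 0.232 to 0.798 CPM elsewhere. Cdkn1a, the p53 target that stops the cycle, was not highest in control 2: it stood at 3.78 CPM there, 3.93 and 3.996 CPM in DIO 1 and DIO 3, and 1.20 to 2.62 CPM in the rest.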
